A study of Rattus norvegicus with 9 samples.

Results

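In rat hypothalamus, 51 array probe sets had a wide empty stretch in the middle of their values, with some of the 9 rats above it and the rest below. They were chosen from the values themselves. A probe set was taken if it ranged over more than 0.5 log2 units across the 9 arrays, and if the largest of the 6 inner gaps between its sorted values (the 2nd to the 7th) took at least 0.45 of that range. At least 2 rats therefore lie on each side of the gap. That gap is called the step, the rats above it the upper rats and those below it the lower rats. Of 31042 probe sets, 554 ranged over more than 0.5 log2 units and 54 of these (9.75%; 0.174% of all probe sets) met both limits. The 3 left out by their symbols were those of Ptgds, of RT1-CE16 and of a probe set with several RT1- symbols, which leaves 51. Since the values chose the members, their levels and steps are a description and were not tested.

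The rats were males aged 13 weeks. Of the 9, 4 received food of medium fat content (26% of energy) made up to 30% by weight of instant noodles together with the noodle seasonings. The other 5, the controls, received the same food lacking the seasonings. Feeding lasted 30 days by the labels' treatment text and 4 weeks by their growth text, with intake matched between diets near 60 g daily for each kg of body weight. Each array holds the hypothalamus of a different rat, and no source used here names the rats' strain, kinship or genotypes. Values are given in the order noodle-diet rats 1, 4, 7 and 13, then control rats 2, 5, 8, 11 and 14, in deposited log2 units.

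A probe set of this kind of array is a group of short oligonucleotides laid against the 3′ part of a transcript, and its signal depends both on how much RNA is present and on how well the RNA matches the oligonucleotides. In animals that are not genetically identical, a sequence difference under a probe, or a regulatory difference that acts on the gene lying next to it, is known to give levels shared by animals of the same genotype, sometimes 3 levels for the 3 genotypes of a site with 2 alleles. Signal can also step when a dissection takes more or less of a neighbouring tissue, and then many genes of that tissue move together. No genotype was measured here, so whether any step follows a sequence variant was not tested.

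As a check of the labelled tissue, Pmch (melanin-concentrating hormone), Avp (vasopressin) and Cartpt stood at means of 12.16, 11.35 and 10.77, far above the median probe set, whereas Pomc, Crh and Ghrh, also on the list of 12 hypothalamic peptides, stood near or below it at 6.26, 6.37 and 6.93. Array medians ran from 6.777 to 6.785 and correlations between arrays from 0.997 to 0.9993. The deposited values are flat for most probe sets: 95.9% spanned under 0.01 log2 units from lowest to highest rat (called compressed here) and 1223 over more than 0.05 (called variable).

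In signal the median of the members lay below that of the variable probe sets, and the members shared few features. Their mean levels ran from 5.76 to 10.11 with a median of 7.11, against 6.78 for all probe sets and 8.10 for the variable ones. Steps ran from 0.27 (Rsad2) to 1.59 (the unnamed probe set 1388071_x_at), with a median of 0.56, and 4 steps exceeded 1 log2 unit. In 7 members, among them Nts and Ddr2, the rats on one side of the step were spread over more than the step itself. Of the 51, 33 carried 1 gene symbol and stood for 29 genes, 3 carried several symbols and 15 were unnamed here. The number of upper rats was 2 in 6 members, 3 in 10, 4 in 3, 5 in 15, 6 in 7 and 7 in 10. Just inside the limit on the range stood Rsad2 (0.50), Clcc1 (0.53) and Stra6 (0.58), and just outside it 2 unnamed probe sets (0.49 and 0.48) and Fbln1 (0.45). Just inside the limit on the gap stood Nts (0.4502), Aplnr (0.4504) and Lysmd4 (0.451), and just outside it Igf2 (0.449), Tspan8 (0.4489) and the unnamed 1397859_x_at (0.447).

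**Figure D1:**
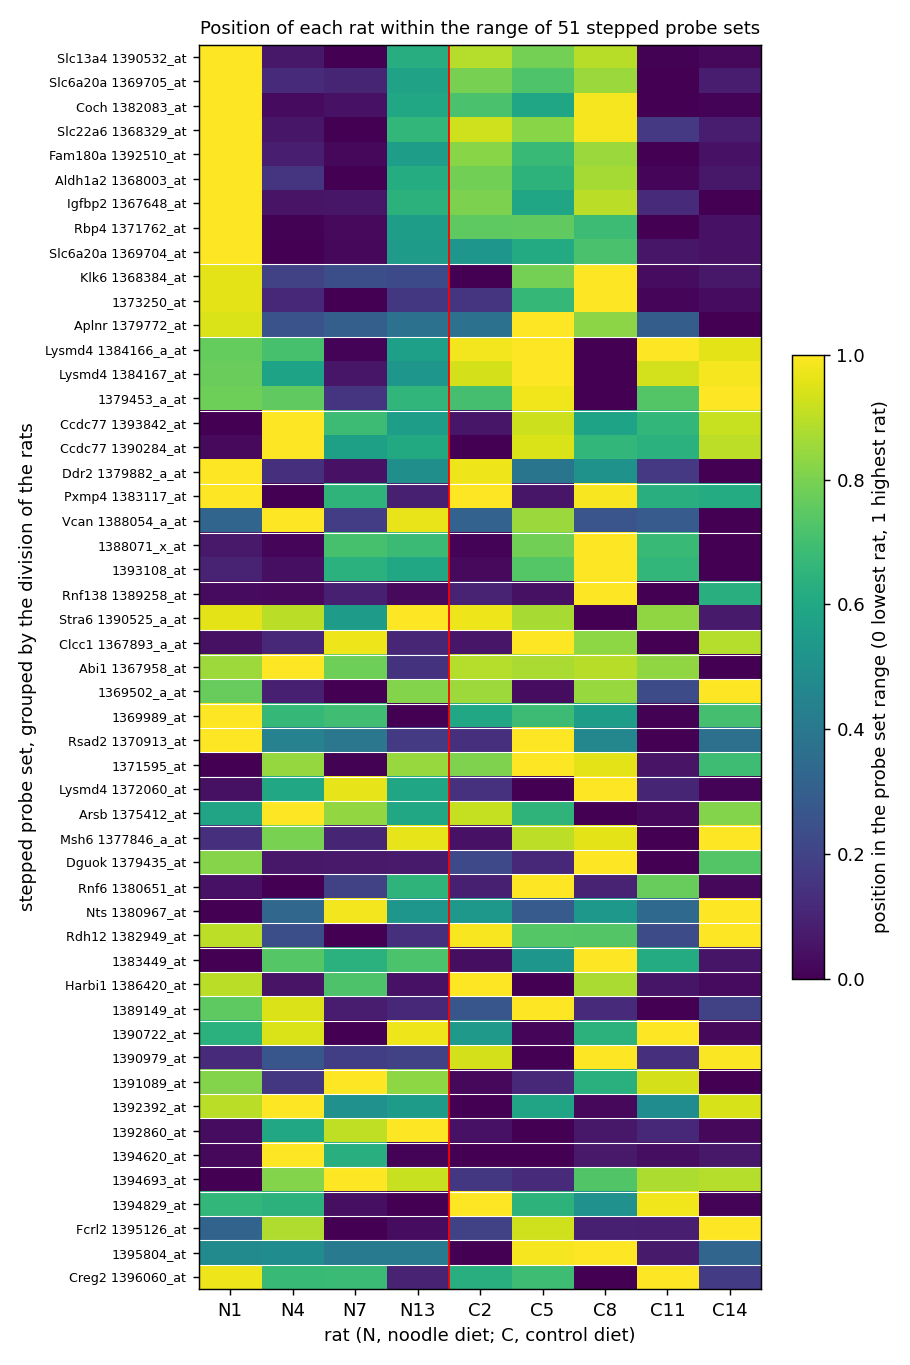
Each row is one of the 51 stepped probe sets and each column a rat (N, noodle diet; C, control diet; the red line parts the diets), with colour giving the position of the rat within that row's own range from 0 to 1. White lines part rows that divide the rats differently: the 9 rows at the top share a division, while most rows lower down have one of their own.

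Grouped by which rats shared a level, the 51 members used 34 divisions of the rats, and 27 of those divisions were used by 1 member each. Only 5 divisions held more than 1 named gene. Among these, Ccdc77 and Ddr2, Pxmp4 and Vcan, and Rnf138 and Stra6 divided the rats at the same place but with upper and lower rats exchanged. The other 2 of the 5, with 9 and 3 members, ran the same way in every member and are described first.

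The division with 9 members set noodle-diet rats 1 and 13 and control rats 2, 5 and 8 above the other 4 rats. Its 8 genes are Slc13a4 (a sulfate transporter), Slc6a20a (a proline and imino acid transporter), Slc22a6 (an organic anion transporter), Coch (cochlin, an extracellular matrix protein), Aldh1a2 (a retinoic acid synthesising enzyme), Rbp4 (the plasma retinol carrier), Igfbp2 (a binding protein of insulin-like growth factors) and Fam180a. Slc13a4 measured 8.40, 6.38, 6.24 and 7.59 on the noodle diet and 8.16, 7.95, 8.17, 6.25 and 6.29 on the control diet. The lower rats lay close together, from 6.24 to 6.38, and the upper rats were spread from 7.59 to 8.40, with noodle-diet rat 13 the lowest of them and noodle-diet rat 1 the highest, so both diets had rats on both levels.

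Both Slc6a20a probe sets were members. The stronger step, 0.87, came from 1369705_at, with 8.49, 6.81, 6.77 and 7.68 on the noodle diet and 8.10, 7.97, 8.21, 6.57 and 6.72 on the control diet. Its partner 1369704_at had 7.58, 6.58, 6.60 and 7.13 and then 7.10, 7.19, 7.30, 6.64 and 6.62. In both, noodle-diet rat 1 stood highest and the same 4 rats stood low.

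Coch measured 8.39, 6.86, 6.90 and 7.75 on the noodle diet and 7.94, 7.74, 8.37, 6.82 and 6.83 on the control diet. Slc22a6 measured 7.44, 5.85, 5.75 and 6.86, then 7.32, 7.13, 7.41, 6.03 and 5.89. Here too the lower rats were close together and the upper rats were not. Fam180a measured 7.82, 6.47, 6.38 and 7.18, then 7.56, 7.35, 7.60, 6.35 and 6.43. For Aldh1a2 the values were 7.75, 6.55, 6.33 and 7.21, then 7.44, 7.25, 7.55, 6.35 and 6.42. Igfbp2 measured 8.93, 7.63, 7.64 and 8.44, then 8.66, 8.36, 8.79, 7.72 and 7.56. Rbp4 had its lower rats between 7.02 and 7.08 and its upper rats between 7.68 and 8.19.

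These 9 members did not stand alone. A further 65 variable probe sets outside the set had their largest inner gap at that same place, against a mean of 3.06 for each possible division into 4 and 5 rats. Meningeal markers ran with it. Of 10 listed markers of meninges and fibroblasts 2 are members themselves (Slc22a6 and Aldh1a2), and of the remaining 8, all variable, 6 put every upper rat above every lower rat (Igf2, Col1a2, Ogn, Col3a1, Col1a1 and Slc6a13), while Dcn and Lum overlapped. The mean deviation of the 8 markers lay between 0.10 and 0.67 in the upper rats and between -0.52 and -0.28 in the lower rats. Ptgds, left out by its symbol, used the same division, with 10.22 to 10.61 in the lower rats and 12.15 to 12.76 in the upper rats. The blood marker Hbb, the variable one of the erythroid list, also separated these rats, with 11.04 to 11.54 in the upper rats and 10.57 to 10.95 in the lower rats. The 2 variable neuronal markers ran the other way, at a mean deviation of -0.15 to 0.013 in the upper rats and 0.014 to 0.095 in the lower rats. These ranges nearly met, only Nefl separated the rats alone, and the other listed neuronal markers were compressed. The part of meningeal tissue or blood content in these steps was not tested, and in whole tissue fewer cells of a type cannot be told apart from less RNA per cell.

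The division with 3 members set noodle-diet rat 1 and control rats 5 and 8 above the other 6 rats, and held Klk6 (a secreted serine protease made by oligodendrocytes), Aplnr (the apelin receptor) and the probe set 1373250_at, which carries several symbols. Klk6 measured 8.77, 7.96, 8.01 and 7.99 on the noodle diet and 7.75, 8.59, 8.81, 7.79 and 7.82 on the control diet. Aplnr stood at 6.67 to 6.80 in the 3 upper rats and at 6.03 to 6.32 in the others. Here 94 other variable probe sets shared the division, against a mean of 4.45 for divisions into 3 and 6 rats. Of the 9 oligodendrocyte markers measured, all variable, 8 put those 3 rats above the rest, with Opalin the exception. Their mean deviation was 0.13 to 0.36 in the 3 upper rats and -0.20 to -0.0055 in the others, and the part of myelin content in these steps was not tested. The astrocyte list also separated the rats this way, at 0.071 to 0.16 against -0.16 to 0.026, with 1 of its 6 genes doing so alone. These 12 members are described here as probe sets that run with meningeal or myelin markers, not as variant-like steps. That names only how their values run, and the cause of each step was not tested.

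**Figure D2:**
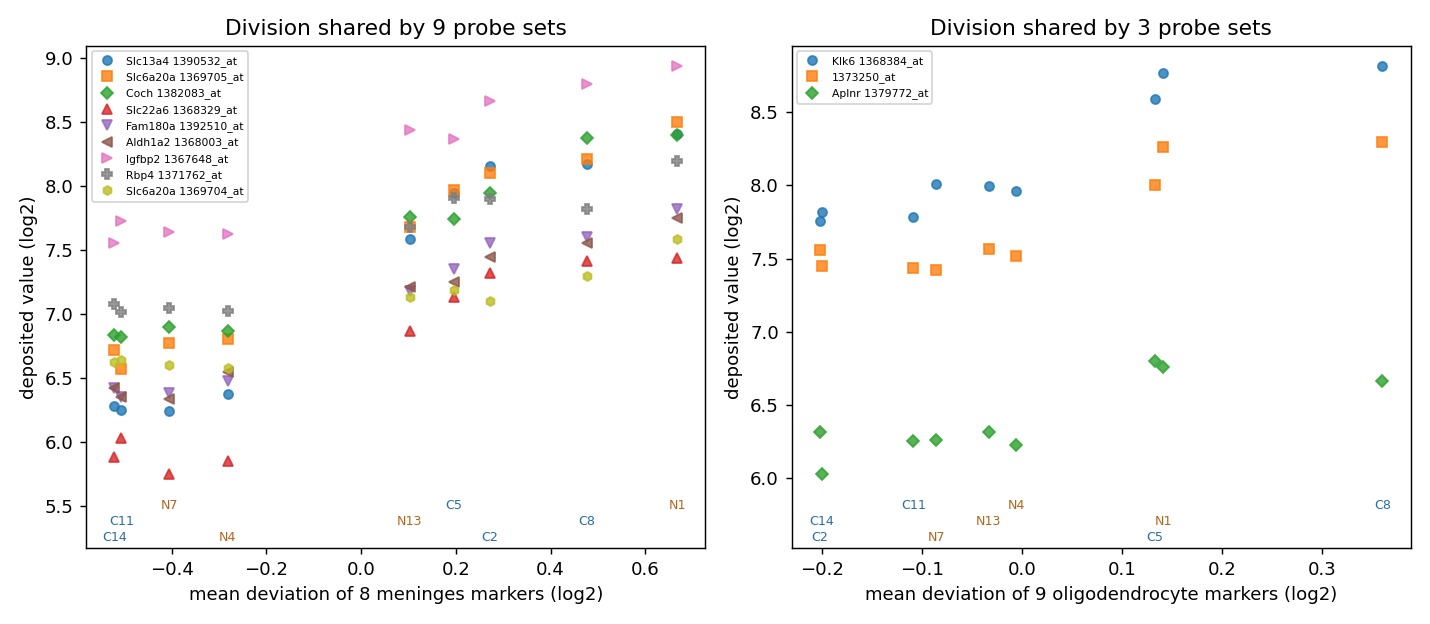
The horizontal axis is the mean deviation, in log2 units, of marker genes that are not members, and the vertical axis is the deposited log2 value of each member; every point is a rat, named along the bottom (N, noodle diet; C, control diet). On the left the 5 rats with marker deviations of 0.10 or more are the upper rats of all 9 probe sets, and on the right the 3 rats at 0.13 or more are the upper rats of all 3.

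The other 39 members used 32 divisions, and for many of these few other probe sets did the same. In 14 divisions, with 1 member each, at most 2 of the other variable probe sets had their largest inner gap at that place. Those members include Clcc1, Creg2, Dguok, Fcrl2, Harbi1, Msh6, Rdh12, Rnf6 and a probe set of Lysmd4. The means were 3.06 variable probe sets for divisions into 4 and 5 rats and 4.45 for those into 3 and 6. The 2 divisions described first raise these means, so few others need not be particular to these members. Divisions into 2 and 7 rats, of which only 36 exist, had a mean of 12.9 variable probe sets each. The 11 of them that members used had from 2 to 33 others, with 5 for Abi1, 7 for Arsb, 26 for the division of 2 Lysmd4 probe sets and 27 for that of Ccdc77 and Ddr2. Some marker lists separated the rats in these divisions too, though most comparisons of a list with a division overlapped. The 8 variable hypothalamic peptides had a mean deviation of -0.033 to 0.16 in the upper rats of Ccdc77 and -0.30 to -0.26 in its lower rats, with 1 of 8 genes separating the rats that way alone and 1 the opposite way. The same peptides had 0.14 to 0.16 in the lower rats of Creg2 and -0.30 to 0.10 in its upper rats. There 0 of the 8 genes separated the rats alone. The 6 variable microglial genes had -0.024 to 0.22 in the upper rats of Rdh12 and -0.17 to -0.075 in its lower rats, and the 6 astrocyte genes 0.12 to 0.16 in the upper rats of Rsad2 and -0.16 to 0.071 in its lower rats, with 2 of 6 genes doing so alone in each case. The 2 variable pituitary genes, Cga and Tshb, ran against Pxmp4, at 0.58 to 1.04 in its lower rats and -1.07 to 0.52 in its upper rats, and against Rnf138, at -0.80 to 1.04 and -1.07 to -0.90. Of these 2 genes, 1 separated the rats alone for Pxmp4 and 2 did so for Rnf138. The mean of Cga and Tshb thus ran with Vcan and Stra6, which divided the rats at these places with upper and lower rats exchanged. The part of any of these cell types in these steps was not tested.

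Pxmp4, a peroxisomal membrane protein, had the largest step of any named member outside the meningeal division, and its values fell on 3 levels. The member 1383117_at measured 7.81, 5.73, 7.08 and 5.91 on the noodle diet and 7.80, 5.86, 7.79, 7.04 and 7.01 on the control diet. Noodle-diet rats 4 and 13 and control rat 5 lay between 5.73 and 5.91, noodle-diet rat 7 and control rats 11 and 14 between 7.01 and 7.08, and noodle-diet rat 1 and control rats 2 and 8 between 7.79 and 7.81. The second Pxmp4 probe set, 1393421_at, is not a member, its gap share being 0.446. It measured 7.29, 6.28, 7.01 and 6.41, then 7.28, 6.36, 7.23, 6.87 and 6.86. The same 3 rats stood lowest, with a gap of 0.45 above them, and the same 3 rats stood highest.

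Lysmd4, which encodes a protein with a LysM domain, had 3 member probe sets whose levels ran in opposite directions. For 1372060_at the values were 5.68, 6.48, 7.02 and 6.47 on the noodle diet and 5.82, 5.61, 7.07, 5.76 and 5.62 on the control diet. Noodle-diet rat 7 and control rat 8 were highest, noodle-diet rats 4 and 13 formed a middle level and the other 5 rats lay between 5.61 and 5.82. The probe set 1384166_a_at measured 7.69, 7.64, 6.89 and 7.48, then 7.93, 7.95, 6.88, 7.94 and 7.90, and 1384167_at measured 7.70, 7.51, 7.01 and 7.46, then 7.85, 7.92, 6.95, 7.85 and 7.90. On both, noodle-diet rat 7 and control rat 8 were lowest and noodle-diet rats 4 and 13 came next, so the order of the levels was reversed. Those 2 probe sets are annotated to 1 expressed sequence and are not independent of each other. The fourth Lysmd4 probe set was compressed. The unnamed 1379453_a_at also set noodle-diet rat 7 and control rat 8 apart, at 6.23 and 6.12 against 6.59 to 6.83.

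Ccdc77, a coiled-coil protein gene, had both of its probe sets among the members, with noodle-diet rat 1 and control rat 2 low on each. The values of 1393842_at were 5.91, 7.62, 7.08 and 6.88 on the noodle diet and 6.02, 7.49, 6.91, 7.05 and 7.48 on the control diet. Those of 1390284_at were 6.49, 7.55, 7.08 and 7.12, then 6.46, 7.48, 7.18, 7.15 and 7.44. Above the step, noodle-diet rat 4 and control rats 5 and 14 formed a top level on both probe sets, apart from noodle-diet rats 7 and 13 and control rats 8 and 11.

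Further variable probe sets existed for Pxmp4, Stra6, Vcan and Ddr2. They were not chosen by the rule, and in 4 of 5 comparisons they put every upper rat of the member above every lower rat. The Vcan comparisons share 1 member and are not independent. Over all variable probe sets of other genes, set against the named members outside the meningeal division, 5.64% divided the rats as the member did, in either direction. That share also takes in Klk6 and Aplnr, whose division many other variable probe sets used, so it is not a like measure. Stra6, the membrane receptor for retinol-binding protein, measured 7.35, 7.31, 7.11 and 7.37, then 7.36, 7.29, 6.79, 7.27 and 6.83 on its member probe set, and 7.61, 7.43, 7.24 and 7.49, then 7.52, 7.46, 6.80, 7.49 and 6.97 on 1385475_a_at. Control rats 8 and 14 were lowest on both, as they were for the pituitary genes Cga and Tshb. Vcan (versican, a matrix proteoglycan) was high in noodle-diet rats 4 and 13 and control rat 5, at 7.67 to 7.79 against 6.97 to 7.23, and the same 3 rats were highest on 1388142_at, with a gap of 0.14, and on 1371232_a_at, with a gap of 0.17. Ddr2, a collagen receptor, was the exception: noodle-diet rat 1 and control rat 2 stood at 6.56 and 6.54 on the member and at 6.63 and 6.37 on 1389423_at, where rat 1 was again the highest but rat 2 lay among the other rats.

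The remaining comparisons within a gene, 17 in all, were with compressed probe sets, whose values ranged over at most 0.0016 log2 units and cannot be read as fold changes. In 7 of these 17 the upper rats of the member all lay above the lower rats, in 1 (Harbi1) all below, and in 9 they overlapped. Over compressed probe sets of other genes the share that lay above in this way was 2.2%. Lysmd4 enters 3 of the 17 comparisons with 1 compressed probe set, so they are not independent. Of the 29 named genes 15 had a single probe set, and for these no second measurement exists here.

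**Figure D3:**
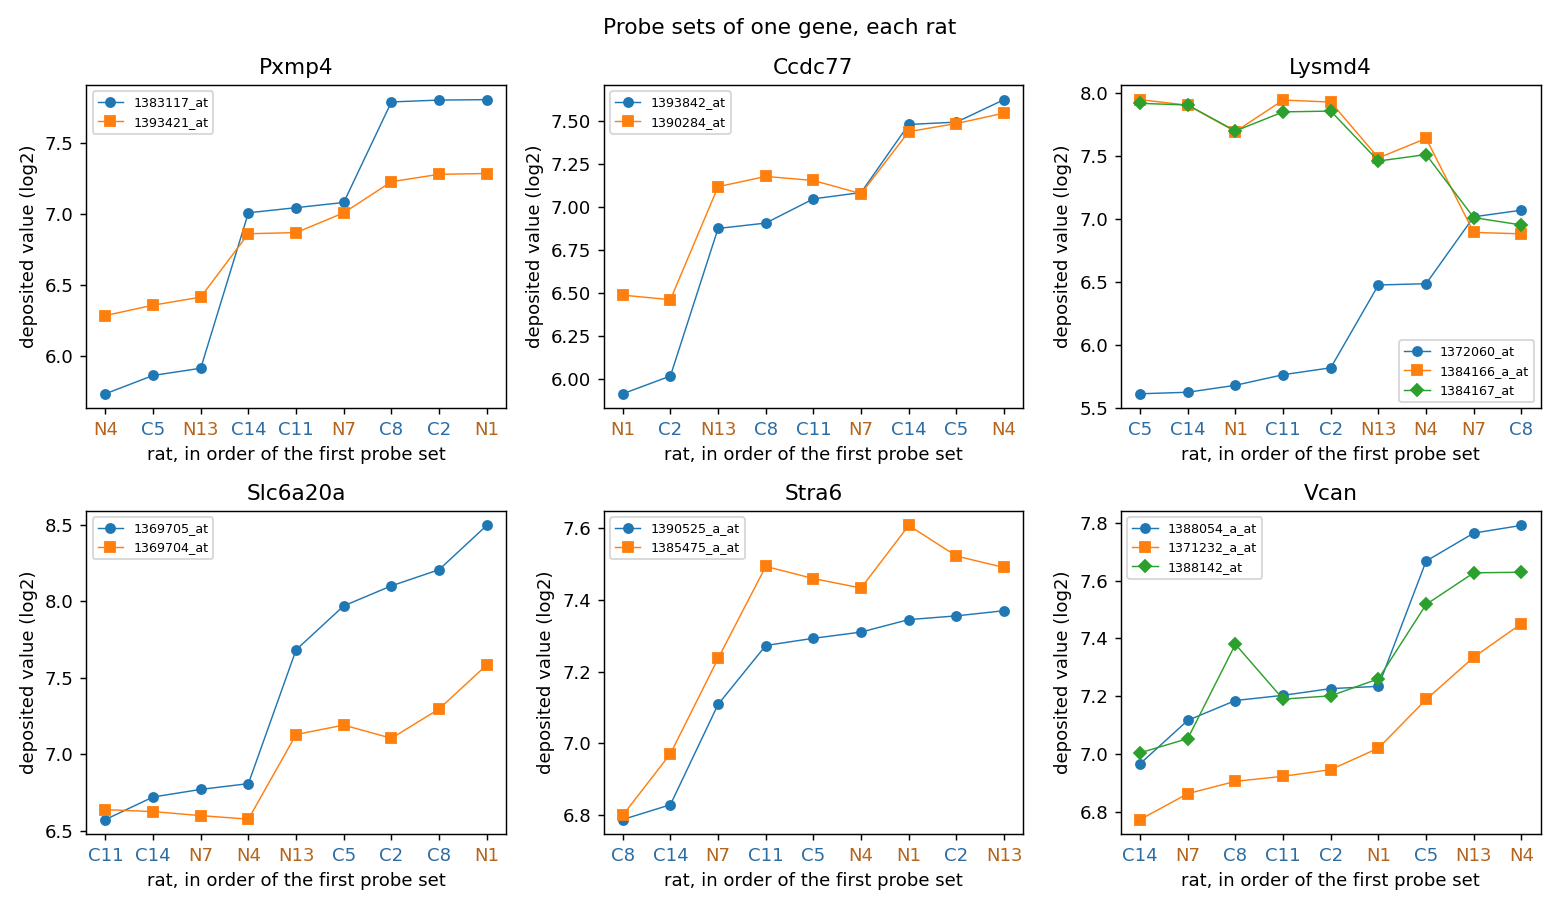
Each panel shows deposited log2 values (vertical axis) of 2 or 3 probe sets of 1 gene in each rat (N, noodle diet; C, control diet), with rats in the order of the first probe set and lines only joining values of a probe set. For Pxmp4, Ccdc77, Slc6a20a, Stra6 and Vcan the probe sets keep the same rats low, whereas for Lysmd4 the rats that are highest on 1372060_at, at 7.02 and 7.07, are the lowest on the other 2.

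A further gap, taking at least 0.2 of the range and leaving at least 2 rats on each of 3 levels, was found in 12 of the 51 members. These were Pxmp4, both Ccdc77 probe sets, 1372060_at of Lysmd4, Ddr2, Creg2, 5 unnamed probe sets and also Coch, which belongs to the meningeal division. Creg2 encodes a glycoprotein expressed in brain. Creg2 measured 8.13, 7.53, 7.55 and 6.38 on the noodle diet and 7.45, 7.56, 6.19, 8.18 and 6.54 on the control diet, that is 3 rats at 6.19 to 6.54, 4 at 7.45 to 7.56 and 2 at 8.13 to 8.18. The unnamed 1390722_at had 3 rats at 6.90 to 6.93, 3 at 7.80 to 7.99 and 3 at 8.49 to 8.59. For 1392392_at, also unnamed, 2 rats stood at 5.78 to 5.81, 4 at 6.37 to 6.48 and 3 at 6.85 to 6.98. The limit of 0.2 was set after the values had been seen. No such count was made over probe sets outside the 51, so it is not known whether 12 is many. Whether the levels follow genotypes was not tested.

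Rnf138, a ubiquitin ligase of DNA repair, was high in control rats 8 and 14 only, at 8.73 and 8.15. The other control rats stood at 7.31, 7.23 and 7.16 and the noodle-diet rats at 7.21, 7.20, 7.30 and 7.20. The 2 other Rnf138 probe sets were compressed. Abi1, a subunit of the WAVE complex that drives actin branching, showed the reverse shape, with noodle-diet rat 13 and control rat 14 at 8.56 and 8.41 and the other 7 rats at 9.20 to 9.42. Arsb, a lysosomal sulfatase, was low in control rats 8 and 11, at 9.50 and 9.52, and stood at 10.10, 10.52, 10.35 and 10.11 on the noodle diet and 10.43, 10.16 and 10.33 in the other control rats.

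Several further genes had their rats on 2 levels, only some of them narrow, with both diets on each level. Clcc1, a chloride channel protein of the endoplasmic reticulum, had 5 rats at 7.36 to 7.42 and 4 at 7.80 to 7.89, and its step took 0.71 of its range, the highest share of any member. Harbi1, derived from a transposase, had 5 rats at 6.70 to 6.74 and 4 at 7.28 to 7.50. Dguok, the mitochondrial deoxyguanosine kinase, had 6 rats at 6.37 to 6.51 and 3 at 6.82 to 6.99. In these 3 genes the lower level was the tighter. Rnf6, another ubiquitin ligase, had 6 rats at 6.56 to 6.78 and 3 at 7.29 to 7.67. Fcrl2, an Fc receptor-like protein, had 6 at 6.15 to 6.43 and 3 at 6.92 to 7.02. The remaining pair of this kind had 2 upper rats each. Rsad2 (viperin, an interferon-induced antiviral enzyme) stood at 7.25 in noodle-diet rat 1 and control rat 5 and at 6.74 to 6.98 in the others. The neuropeptide gene Nts (neurotensin) stood at 8.30 and 8.31 in noodle-diet rat 7 and control rat 14 and at 7.49 to 7.93 in the others, a spread of the lower rats wider than the step of 0.37.

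The member of largest range, 1388071_x_at, and another unnamed probe set ran with an RT1 histocompatibility gene. Noodle-diet rats 7 and 13 and control rats 5, 8 and 11 stood at 8.61 to 9.46 on 1388071_x_at and at 6.72 to 7.38 on 1393108_at, and the other 4 rats at 6.84 to 7.02 and 5.75 to 5.90. RT1-CE16, left out by its symbol, divided the rats the same way, with 6.94 to 7.88 against 5.86 to 5.97. On all 3 probe sets control rat 8 was the highest, at 9.46, 7.38 and 7.88. Outside the set, 5 variable probe sets used this division, RT1-CE16 among them. The mean for divisions into 4 and 5 rats was 3.06. The other RT1 probe set left out, 1370428_x_at, with several symbols, shared the division of the unnamed member 1395804_at in the reverse direction. Control rats 5 and 8 stood at 5.71 and 5.60 on it, against 7.40 to 8.37 in the others, and at 7.75 and 7.76 on the member, against 7.15 to 7.44. This division was used by 33 variable probe sets outside the set, 1370428_x_at included. The mean for divisions into 2 and 7 rats was 12.9. Of the 9 oligodendrocyte markers, 4 also put control rats 5 and 8 above the rest.

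The positions of the genes were not used by the rule. Among the 32 pairs of named genes that share a division, 3 pairs lay on 1 chromosome and 1 pair, Slc13a4 and Fam180a, lay within 10 genes in the order of the rat gene table. Variable probe sets of genes within 10 places gave 11 comparisons for named members outside the meningeal division, of which 1 divided the rats as the member did, against 5.64% of all such comparisons with variable probe sets of other genes. The 1 that did was Fbxo11, an F-box subunit of a ubiquitin ligase, beside the mismatch repair gene Msh6. Msh6 measured 6.87, 7.42, 6.84 and 7.55 on the noodle diet and 6.80, 7.50, 7.55, 6.76 and 7.58 on the control diet. Fbxo11 measured 8.60, 9.16, 8.54 and 9.17, then 8.58, 9.12, 8.95, 8.46 and 9.27, with a gap share of 0.43, just below the limit. On both, noodle-diet rats 4 and 13 and control rats 5, 8 and 14 stood above the other 4 rats without overlap. For the members of the meningeal division 3 of 7 such comparisons ran the same way, against 17.9% of all variable probe sets of other genes: Slc13a4 and Fam180a, counted from either side, and Slc22a8 beside Slc22a6. Slc22a8 had 7.17 to 7.42 in the upper rats and 6.84 to 7.03 in the lower rats.

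The sequences before the starts of the genes are shown for 2 of these 3 pairs, Msh6 with Fbxo11 and Slc13a4 with Fam180a, because the genes of each divide the rats alike; Slc22a6 and Slc22a8 were not used here. They are the 250 bases before the RefSeq start of each gene (build GRCr8), 5′ to 3′ on the gene's strand. Capitals mark CCAAT and GGGCGG on either strand.
Msh6 (chr6:12333506-12333755, minus strand): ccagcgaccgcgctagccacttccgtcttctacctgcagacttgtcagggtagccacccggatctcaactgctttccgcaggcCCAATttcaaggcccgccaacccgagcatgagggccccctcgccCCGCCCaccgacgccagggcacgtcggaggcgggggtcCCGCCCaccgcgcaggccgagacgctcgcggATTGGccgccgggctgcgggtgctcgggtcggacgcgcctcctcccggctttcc
Fbxo11 (chr6:12291692-12291941, plus strand): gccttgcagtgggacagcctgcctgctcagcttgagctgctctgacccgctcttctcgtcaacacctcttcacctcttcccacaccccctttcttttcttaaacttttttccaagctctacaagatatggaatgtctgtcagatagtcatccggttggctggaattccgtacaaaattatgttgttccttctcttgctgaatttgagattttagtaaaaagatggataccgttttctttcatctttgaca
Slc13a4 (chr4:64955987-64956236, minus strand): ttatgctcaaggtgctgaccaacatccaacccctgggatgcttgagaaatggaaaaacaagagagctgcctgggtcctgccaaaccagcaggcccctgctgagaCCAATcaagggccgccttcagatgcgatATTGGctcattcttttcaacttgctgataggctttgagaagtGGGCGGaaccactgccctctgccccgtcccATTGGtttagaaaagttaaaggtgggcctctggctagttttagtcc
Fam180a (chr4:64975177-64975426, minus strand): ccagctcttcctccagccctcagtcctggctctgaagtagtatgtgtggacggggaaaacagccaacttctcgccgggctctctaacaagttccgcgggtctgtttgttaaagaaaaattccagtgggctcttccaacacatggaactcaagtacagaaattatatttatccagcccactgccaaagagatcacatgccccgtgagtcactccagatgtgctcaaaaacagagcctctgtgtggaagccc
Msh6 and Fbxo11 lie on opposite strands and are transcribed toward each other, so these 2 windows are at the far ends of the pair, while Slc13a4 and Fam180a lie on the same strand. Msh6 held 2 matches to CCAAT and 2 to GGGCGG, and Slc13a4 held 3 and 1. Fbxo11 and Fam180a held 0 of either, and none of the 4 windows held TATAAA or CACGTG. Of 33469 windows of the same length, 34% held CCAAT, 30.5% GGGCGG, 12.9% TATAAA and 5.59% CACGTG, on either strand, and the motifs do not overlap as marked. The bases making up the windows were 71.6% G or C for Msh6, 44% for Fbxo11, 52% for Slc13a4 and 50.4% for Fam180a, with a median of 51.2% over all windows. The windows are reference sequence and say nothing of the alleles of these rats.

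**Figure D4:**
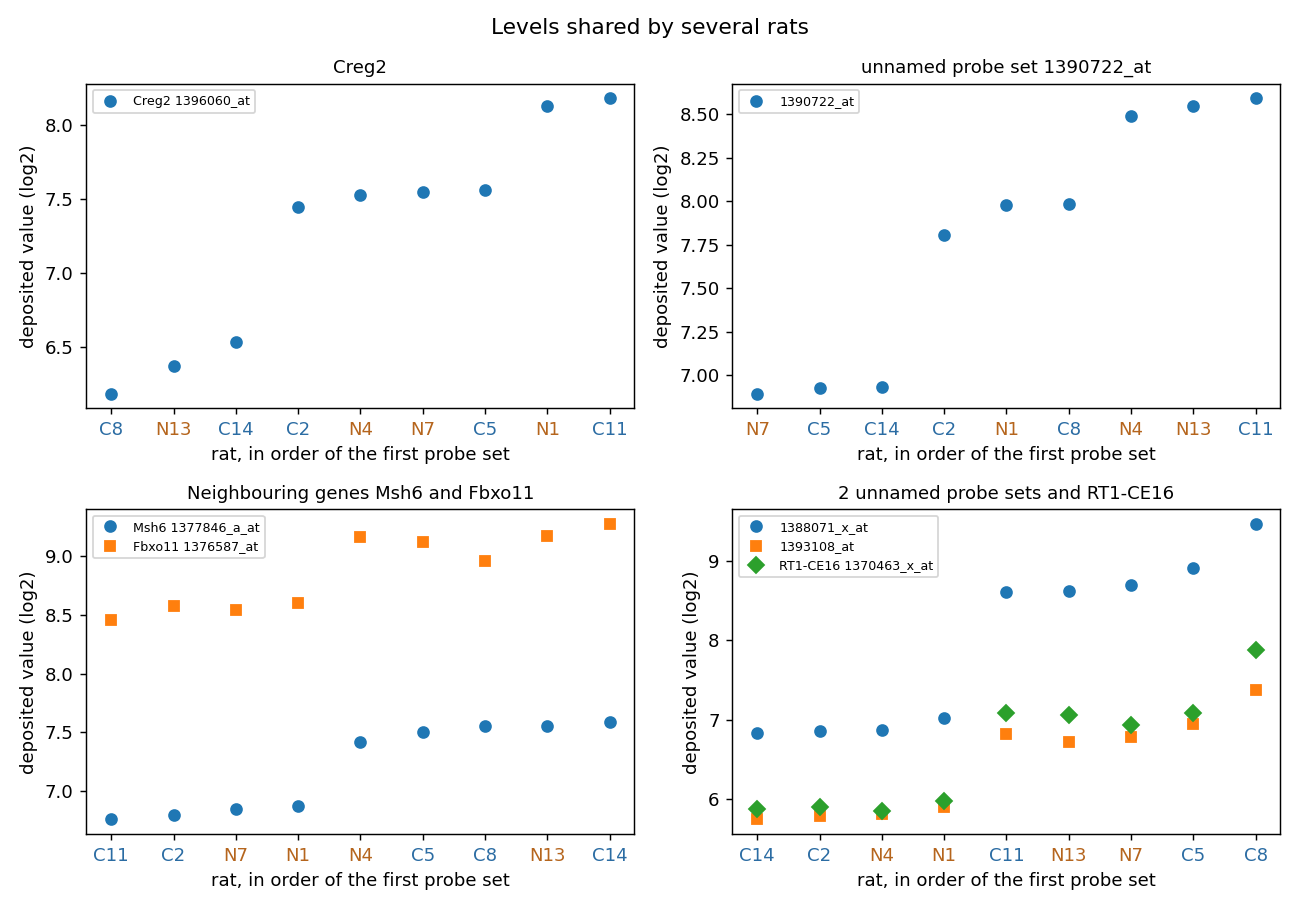
Each point is the deposited log2 value (vertical axis) of a probe set in a rat (N, noodle diet; C, control diet), with rats in the order of the first probe set of the panel. Creg2 and 1390722_at show 3 levels, Fbxo11 keeps the same 4 rats low as Msh6, and both unnamed probe sets have the same 5 rats high as RT1-CE16.

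No member passed the test for diet. The comparison asked whether seasonings alter hypothalamic transcripts, and the rule used no diet label. By limma, with Benjamini-Hochberg adjustment over all 31042 probe sets, 0 members passed (0% of all probe sets did), and 1 member had an unadjusted p under 0.05 (1.96%, against 2.29% of all probe sets and 0.899% of the variable ones). In none of the 51 were the diets free of overlap, against 0.567% of all probe sets and 0.0818% of the variable ones. The noodle-diet mean was higher in 19 members and lower in 32, against 51.9% higher among variable probe sets, but that split rested on single rats: without noodle-diet rat 4 or 7 or control rat 5 or 8, 27, 29, 26 and 30 members were higher. The median difference was -0.059 and the median standard error 0.25 log2 units.

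The named members of lowest p for diet were Rdh12, Rnf138, Stra6 and Arsb. Rdh12, a retinol dehydrogenase, measured 6.51, 6.0, 5.81 and 5.92 in the noodle-diet rats and 6.58, 6.39, 6.38, 5.99 and 6.59 in the controls. By limma the noodle-diet mean minus the control mean was -0.33 (SE 0.18, unadjusted p = 0.101). Noodle-diet rat 1 stood among the high controls and control rat 11 among the low noodle-diet rats. By the same limma fit the differences were -0.49 for Rnf138 (SE 0.33, unadjusted p = 0.182), 0.18 for Stra6 (SE 0.14, unadjusted p = 0.250) and 0.28 for Arsb (SE 0.23, unadjusted p = 0.258), all with an adjusted p that rounds to 1. In 2 unnamed members, picked after their values were seen, the upper rats were all on the noodle diet. The probe set 1392860_at stood at 5.59, 6.47, 6.94 and 7.09 on the noodle diet and at 5.62, 5.54, 5.64, 5.71 and 5.57 on the control diet (difference 0.90, SE 0.28, limma unadjusted p = 0.0131), with noodle-diet rat 1 at the control level. For 1394620_at noodle-diet rats 4 and 7 stood at 7.96 and 7.27 and the other 7 rats at 6.10 to 6.22 (difference 0.71, SE 0.38, limma unadjusted p = 0.0995). Neither passed by limma. In the reverse case, 1390979_at, which carries several symbols, stood at 6.75 to 6.82 in control rats 2, 8 and 14 and at 5.81 to 6.08 in the other 6 rats. The pituitary genes Cga and Tshb ran against this probe set. Their mean deviation was -1.07 to -0.80 in its upper rats and -0.29 to 1.04 in its lower rats, and each gene separated the rats alone. The part of pituitary content in this step was not tested.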

How the data were processed

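Hypothalami of 9 rats were assayed, which the sample titles place on the noodle diet (4) or the control diet (5). According to the labels' protocols, TRIzol extraction and column purification gave RNA of which 100 ng was turned into biotin-tagged cRNA. The deposited data are log2 values for 31099 probe sets on 9 arrays. That they are log2 was read from their range (5.13 to 13.66), and no source used here names the summarization or normalization behind them. They were used as deposited, without 57 manufacturer controls. The platform's annotation, matched to rat genes (GRCr8) by gene number, gave 1 symbol to 20826 probe sets, several to 436 and none to 9780; all 33 member symbols matched. Diets were compared by limma 3.58.1 in R 4.3.3 (lmFit, eBayes with an intensity trend, 2-sided, Benjamini-Hochberg), whose precision the number of arrays limits. On simulated data with differences of 0.5 and 1 log2 units in 100 variable probe sets each, it recovered 43 and 76, with 8 false calls among 31042 probe sets. The changed probe sets were drawn from all variable ones, most of which range less than the members do. Recovery among members, with a median standard error of 0.25, was not measured and may be lower. P-values set each diet difference against the spread between rats within a diet, moderated over probe sets by eBayes.

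Given rat by rat were genes with several member probe sets, the 12 named members of largest step, neighbours sharing a division and the 4 named members of lowest diet p; other members were given by range. Members and lists were chosen with earlier results of these data known. Alternatives were quantile normalization, a common array median, other limits of the rule, other limma settings, a filter and a floor at the 20th percentile, and leaving out each rat.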

Additional observations from a re-analysis of the deposited data

Results flagged for a closer look

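Among the probe sets given rat by rat, 38 groups of 1 diet were checked for a rat far from the others. Such a rat was found in 4 groups. Of these, 3 were control rat 8 on the Lysmd4 probe sets: it stood at 7.07 on 1372060_at, with the other control rats at 5.61 to 5.82, at 6.88 on 1384166_a_at, with the others at 7.90 to 7.95, and at 6.95 on 1384167_at, with the others at 7.85 to 7.92. The last was noodle-diet rat 7 on Rnf138, at 7.30 with the others at 7.20 to 7.21, a small distance among closely grouped values. Because the rule chose these probe sets by their gaps, the usual chance count of about 2 groups does not apply here.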

How the results depend on the processing

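The number of stepped probe sets followed the gap limit: a share of at least 0.40 gave 95 probe sets, 8 divisions with more than 1 named gene and 2 neighbouring pairs, and a share of at least 0.50 gave 30, 2 and 0. Range limits of 0.4 and 0.6 gave 59 and 48 probe sets, quantile normalization 53 and a common median 51, of which 50 were the same after either. With 1 rat left out the rule, applied to 8 values, found 62 to 85 probe sets (85 without noodle-diet rat 13), keeping 43 to 50 of the 51. Divisions with more than 1 named gene then numbered 5 to 9 (8 without control rat 5, 9 without control rat 14) and neighbouring pairs 1 to 2, with 2 without noodle-diet rats 1, 4 or 13 or control rats 8, 11 or 14. Counting neighbours within 5 or 20 genes, or, chosen after seeing the data, within 10 protein-coding genes, left 1 pair. Under every limma alternative 0 members passed, and so at an adjusted p under 0.10. The filter on low means removed 2 members, among them 1392860_at, and 0 members then had an unadjusted limma p under 0.05. With the floor the difference of 1392860_at was 0.57 in place of 0.90 (limma unadjusted p = 0.0188). Leaving out single rats, the diet difference ran from -0.48 to -0.24 for Rdh12, -0.63 to -0.24 for Rnf138, 0.096 to 0.24 for Stra6, 0.16 to 0.39 for Arsb, 0.72 to 1.21 for 1392860_at and 0.34 to 0.96 for 1394620_at, and no direction turned. Steps of the 16 probe sets checked moved by at most 0.0079 with either scaling. No paired analysis was possible because the diets share no rat numbers.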

Other observations

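Gene families were counted without regard to how they moved. Of 422 probe sets of solute carriers 4 were stepped (0.948%), all in the meningeal division, against 0.158% of all named probe sets. These 4 include both probe sets of Slc6a20a. Of the solute carrier probe sets 7.58% were variable, against 4.49% of all named probe sets. Aldehyde dehydrogenases had 1 of 20, Aldh1a2. Zinc finger proteins had 0 stepped of 409 probe sets, of which 1 was variable. The member Rsad2 is induced by interferon but was not on the list of interferon-induced genes. Of the 26 probe sets of that list 7 were variable, 6 ranged over more than 0.5 log2 units and 0 were stepped, and of 22 for glutathione S-transferases 5 were variable and 0 stepped. These counts rest on values that the rule used and were not tested.

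Some rats shared levels more often than others. Noodle-diet rat 1 and control rat 2 lay on the same side of the step in 41 of 51 members, and in 32 of 42 without the meningeal division, the most of the 36 pairs. Noodle-diet rat 4 and control rat 8 did so in 15 of 51, the fewest. Members share divisions and tissue signals, so they are not independent counts, and no source used here names the kinship of the rats. These pairs are the extremes of 36, and the same count was not made over other variable probe sets. Whether any 2 rats shared levels more often than usual was therefore not tested.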
